A study of Mus musculus with 11 samples.

Results

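Genes were followed because their products carry out, or directly govern, the antiviral response to type I interferon: Oas1a, Oasl2, Zbp1, Rsad2, Isg15, Ifit1, Ifit2, Ifit3, Irf7 and Usp18. The 10 genes were picked by symbol from the 37991 genes of the count table, and each symbol occurred once. They were measured by RNA sequencing in 11 mouse spinal cord libraries of 4 kinds. Cords of the C57BL/6 Col1a1GFP reporter strain, whose GFP (green fluorescent protein) labels cells with an active collagen gene Col1a1, were dissociated, and the GFP-positive cells were collected by flow sorting. Sorted libraries came from mice with EAE (experimental autoimmune encephalomyelitis, in which the immune system attacks the animal's own myelin), at 5 days (D5, n = 3) and 10 days (D10, n = 3) after the first symptoms, and from healthy mice of the same strain (sorted control, n = 3). Whole cord libraries (n = 2) came from unsorted cords of healthy C57BL/6 mice that carried no reporter. Every sorted library pooled 2 to 3 cords and every whole cord library held 1, so a p-value between sorted groups measures the spread between pools of animals. The sources used here do not give how EAE was induced or the animals' age and sex.

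Type I interferons (the alpha interferons, interferon beta and their relatives) bind a receptor made of Ifnar1 and Ifnar2. The receptor's kinases Jak1 and Tyk2 phosphorylate Stat2, which with Irf9 forms part of a complex that binds the interferon-stimulated response element (ISRE) in front of its target genes. The targets include enzymes and sensors that act on foreign nucleic acid, and also Usp18 and the Socs proteins, which dampen the pathway. Interferon gamma signals through another receptor, and it raises some of the same genes.

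Promoter sequences are shown for the genes in which the ISRE was found by its letters. RefSeq promoter windows (GRCm38.p6, from 250 bases before to 50 after the start of transcription) were matched for 8 of the 10 genes, all but Usp18 and Zbp1. Ifit2 had 2 windows and each other gene 1, which made 9 windows. The ISRE core was searched as GAAANNGAAA, which reads TTTCNNTTTC on the other strand. It was found in 5 of the 8 genes, or 5 of the 9 windows, against 3.44% of the 32851 windows in the RefSeq table. Stretches around the matches are printed on each gene's own strand, 5′ to 3′, with the ISRE core in capitals and distances counted from the start of transcription.
Ifit1, chr19:34640760-34640838, plus strand, bases -129 to -51: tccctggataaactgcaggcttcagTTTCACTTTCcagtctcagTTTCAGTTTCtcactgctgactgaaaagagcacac
Ifit3, chr19:34583348-34583441, plus strand, bases -181 to -88: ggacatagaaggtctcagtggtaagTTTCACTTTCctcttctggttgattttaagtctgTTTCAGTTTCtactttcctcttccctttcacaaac
Isg15, chr4:156200850-156200921, minus strand, bases -103 to -32: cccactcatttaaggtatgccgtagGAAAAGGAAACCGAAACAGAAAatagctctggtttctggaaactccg
Oas1a, chr5:120907526-120907570, minus strand, bases -45 to -1: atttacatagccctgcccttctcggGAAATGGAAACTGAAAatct
Rsad2, chr12:26456538-26456597, minus strand, bases -145 to -86: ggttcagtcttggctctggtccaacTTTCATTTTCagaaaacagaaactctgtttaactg
Ifit1 and Ifit3 each held 2 separate cores with the same 2 spellings. Isg15 held 3 overlapping cores and Oas1a held 2 overlapping cores, so each of these runs is 1 unbroken block of capitals. Rsad2 held 1. No ISRE core of this spelling lay in the windows of Ifit2, Oasl2 and Irf7. The core of the gamma activated site, an element of interferon gamma target genes, was searched as TTCNNNGAA (the same on both strands). It lay in 1 of the 2 windows of Ifit2 and in the window of Oas1a, against 8.30% of all windows. These matches describe letters in a window and no binding was measured.

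Most of the 10 genes were higher in the sorted cells of EAE cords at D5 than in those of healthy cords, and fewer passed the test at D10. At D5, 7 of the 10 rose and none fell: Zbp1 20.9-fold, Oas1a 15.2-fold, Oasl2 3.83-fold, Ifit1 2.33-fold, Irf7 2.27-fold, Isg15 2.23-fold and Ifit3 1.71-fold. At D10, 4 of the 10 rose and none fell: Oas1a 14.6-fold, Zbp1 11.7-fold, Oasl2 3.04-fold and Ifit1 2.00-fold. All D5 libraries lay above all controls for 8 of the 10 genes, as in 22.6% of all genes tested, and all D10 libraries did so for 6 of the 10, as in 16.9%. Of all 15972 genes tested, 13.2% were called higher and 10.7% lower at D5, and 8.38% were called higher and 4.99% lower at D10. The median log2 fold change of the 10 genes was 1.17 at D5 and 0.72 at D10, beside 0.00 and 0.01 over all genes tested. All 10 passed the filter on low counts in the sorted libraries, Oas1a only through the EAE groups, in which it is high. Without Oas1a, which the filter thus let in for its difference, 6 of 9 genes rose at D5 and 3 of 9 at D10. A gene was called when its adjusted p, from edgeR's quasi-likelihood test with Benjamini-Hochberg adjustment over all genes tested, lay under 0.05. Both EAE groups were set against the same 3 control libraries. Levels are given in CPM (counts scaled to the library total) adjusted with TMM factors over all 11 libraries, and they compare libraries for 1 gene, not genes with each other.

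**Figure D1:**
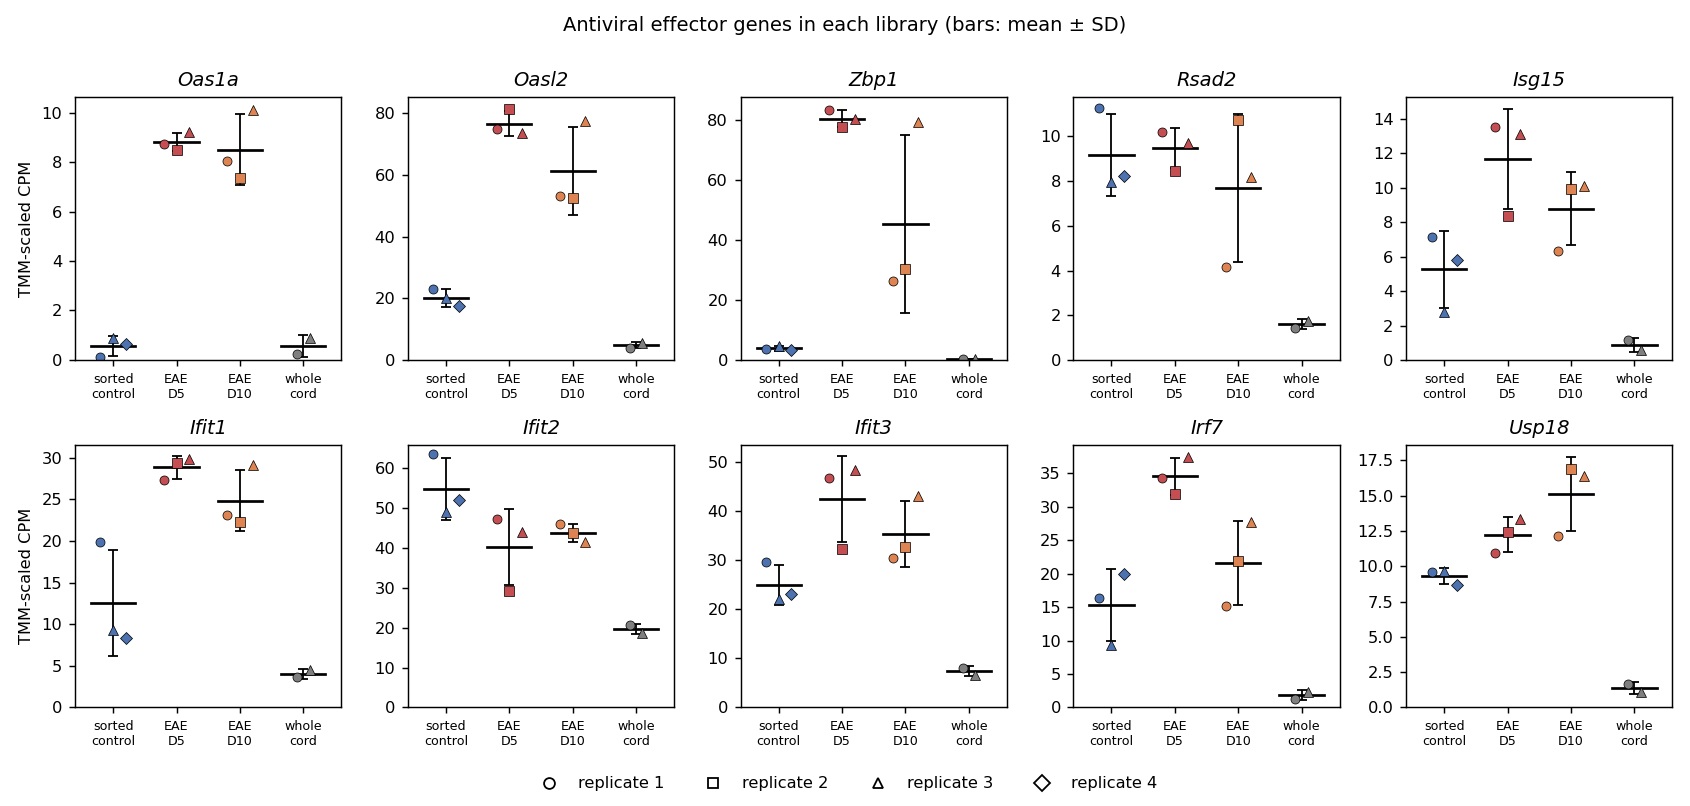
TMM-scaled CPM of each antiviral effector gene in every library, from sorted control through D5 and D10 to whole cord; points are libraries, shaped by replicate number, and bars show mean ± SD. Zbp1, Oas1a and Oasl2 stand clear of the controls in all 6 EAE libraries, while the 3 sorted groups of Rsad2 overlap.

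The oligoadenylate synthetase family senses double-stranded RNA. Oas1a (ENSMUSG00000052776), which makes the oligoadenylates that switch on the RNA-cutting enzyme RNase L, was near the detection limit in healthy sorted cells, at 0.117, 0.897 and 0.646 CPM in control replicates 1, 3 and 4. It reached 8.73, 8.47 and 9.21 CPM in D5 replicates 1 to 3, and 8.04, 7.35 and 10.1 CPM in D10 replicates 1 to 3. No EAE library came near the controls, and the 2 EAE groups overlapped. Oas1a differed from control by a log2 fold change of 3.93 ± 0.49 (SE) at D5 (adjusted p = 0.00019) and of 3.87 ± 0.48 at D10 (adjusted p = 0.00059). The controls held only 1, 9 and 7 reads of Oas1a, and the counting ratio of D5 over control was 15.2 with an exact 95% interval of 9.28 to 26.6, which covers counting error only. Its close relative Oas1g, with which reads may be shared, was also higher at D5 (2.46 ± 0.507 CPM against 0.199 ± 0.345 in control, SD, n = 3 each, adjusted p = 0.0388). Oas1g, too, passed the filter on low counts only through the EAE groups. Oasl2 (ENSMUSG00000029561), a relative with ubiquitin-like domains, had 23.0, 20.0 and 17.4 CPM in control, 75.0, 81.4 and 73.8 CPM at D5, and 53.4, 52.6 and 77.7 CPM at D10. Its 6 EAE libraries all lay above its controls, and D10 replicate 3 lay within the D5 range. The log2 fold change of Oasl2 over control was 1.94 ± 0.18 at D5 (adjusted p = 6.59e-05) and 1.61 ± 0.18 at D10 (adjusted p = 0.000357).

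Zbp1 (ENSMUSG00000027514), a sensor of left-handed nucleic acid that can set off necroptosis, had the largest fold change of the 10 at D5. It had 3.64, 4.69 and 3.23 CPM in control, 83.4, 77.4 and 80.4 CPM at D5, and 26.3, 30.2 and 79.3 CPM at D10. The D5 libraries agreed closely (80.4 ± 2.97 CPM, SD, n = 3), whereas D10 replicate 3 stood far above the other D10 libraries and inside the D5 range (45.3 ± 29.5 CPM, SD, n = 3). Zbp1 rose by a log2 fold change of 4.38 ± 0.39 at D5 (adjusted p = 4.87e-05) and 3.55 ± 0.38 at D10 (adjusted p = 0.000288). Without D10 replicate 3, the D10 change of Zbp1 was 2.87 on the log2 scale, or 7.31-fold (adjusted p = 1.70e-05, range over all alternatives 2.06e-19 to 0.00366). Rsad2 (ENSMUSG00000020641), or viperin, an enzyme that makes a chain-terminating nucleotide, had 11.3, 7.97 and 8.22 CPM in control, 10.2, 8.47 and 9.72 CPM at D5, and 4.18, 10.8 and 8.19 CPM at D10. Its 3 sorted groups overlapped. The log2 fold change of Rsad2 was 0.06 ± 0.34 at D5 (adjusted p = 0.926) and -0.24 ± 0.34 at D10 (adjusted p = 0.704).

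Isg15 (ENSMUSG00000035692) is a ubiquitin-like protein that is attached to other proteins. It had 7.16, 2.79 and 5.82 CPM in control, 13.5, 8.35 and 13.1 CPM at D5, and 6.32, 9.93 and 10.1 CPM at D10. Every D5 library lay above every control, while D10 replicate 1 fell within the control range. Isg15 rose at D5 by a log2 fold change of 1.16 ± 0.37 (adjusted p = 0.0392), and at D10 the value was 0.75 ± 0.37 (adjusted p = 0.214). The D5 call of Isg15 did not hold without control replicate 3 (adjusted p = 0.101), control replicate 4 (0.0774), D5 replicate 1 (0.130) or D5 replicate 3 (0.127), within a range over all alternatives of 0.0174 to 0.130. Usp18 (ENSMUSG00000030107), the protease that removes Isg15 and also blocks the receptor through Ifnar2, had 9.62, 9.67 and 8.68 CPM in control, 10.9, 12.5 and 13.4 CPM at D5, and 12.1, 16.9 and 16.4 CPM at D10. All EAE libraries of Usp18 lay above its controls by a small margin. The log2 fold change was 0.40 ± 0.23 at D5 (adjusted p = 0.238) and 0.70 ± 0.23 at D10 (adjusted p = 0.0625). DESeq2's Wald test called Usp18 at D10 (adjusted p = 0.0442, range over all alternatives 0.0442 to 0.244). Of the enzymes that attach Isg15, the conjugating enzyme Ube2l6 rose at D5 (45.2 ± 7.55 CPM against 14.6 ± 3.61 in control, SD, n = 3 each, adjusted p = 0.000346) and at D10 (31.2 ± 5.76 CPM, adjusted p = 0.00699). The activating enzyme Uba7 had log2 values of 0.25 at D5 (adjusted p = 0.452) and -0.12 at D10 (adjusted p = 0.776), and the ligase Herc6 had 0.61 (adjusted p = 0.0619) and 0.41 (adjusted p = 0.247).

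The Ifit proteins bind foreign RNA through repeated helical motifs and act in complexes with each other. Ifit1 (ENSMUSG00000034459), which recognises RNA that lacks methylation at its cap, had 19.8, 9.27 and 8.40 CPM in control, 27.3, 29.4 and 29.9 CPM at D5, and 23.1, 22.3 and 29.1 CPM at D10. Control replicate 1 stood above the other controls, yet all EAE libraries of Ifit1 lay above it. Its log2 fold change was 1.22 ± 0.29 at D5 (adjusted p = 0.00903) and 1.00 ± 0.29 at D10 (adjusted p = 0.0379). The D10 call of Ifit1 was lost without control replicate 3 (adjusted p = 0.112), control replicate 4 (0.127) or D10 replicate 1 (0.0684), 2 (0.0531) or 3 (0.136), and the range over all alternatives was 0.00234 to 0.145. Ifit3 (ENSMUSG00000074896), a partner that stabilises Ifit1, had 29.6, 22.0 and 23.0 CPM in control, 46.7, 32.2 and 48.2 CPM at D5, and 30.4, 32.6 and 43.0 CPM at D10. The EAE libraries of Ifit3 lay above the controls, though D10 replicate 1 did so narrowly. Its log2 fold change was 0.78 ± 0.21 at D5 (adjusted p = 0.0166) and 0.51 ± 0.21 at D10 (adjusted p = 0.127). The D5 call of Ifit3 was lost without control replicate 3 (adjusted p = 0.0546), control replicate 4 (0.0655), D5 replicate 1 (0.0672) or D5 replicate 3 (0.0793), within 0.00433 to 0.0793 over all alternatives.

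Ifit2 (ENSMUSG00000045932), which binds AU-rich RNA, ran the other way. It had 63.7, 49.0 and 52.0 CPM in control, 47.2, 29.3 and 44.2 CPM at D5, and 46.0, 43.8 and 41.5 CPM at D10. All 6 EAE libraries lay below all 3 controls, with the lowest value in D5 replicate 2. Such a position was common: all D5 libraries lay below all controls in 19.2% of all genes tested, and all D10 libraries in 14.2%. The log2 fold change of Ifit2 was -0.44 ± 0.19 at D5 (adjusted p = 0.104) and -0.33 ± 0.19 at D10 (adjusted p = 0.28), so neither difference passed the test. Reads of Ifit1 and Ifit3 may be shared with near-identical copies, and their values are uncertain to that degree. The Ifit3 copy I830012O16Rik (Ifit3b) averaged 5.97 ± 1.21 CPM in control, 7.14 ± 2.97 at D5 and 10.6 ± 2.87 at D10, and the Ifit1 copies Gm14446 and 2010002M12Rik averaged under 3 CPM in every group.

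Irf7 (ENSMUSG00000025498), the transcription factor that amplifies production of type I interferon, had 16.4, 9.37 and 19.9 CPM in control, 34.3, 32.0 and 37.5 CPM at D5, and 15.2, 22.0 and 27.8 CPM at D10. Every D5 library lay above every library of the other sorted groups, and the D10 and control libraries overlapped. Irf7 rose at D5 by a log2 fold change of 1.18 ± 0.28 (adjusted p = 0.00845), and at D10 the value was 0.50 ± 0.28 (adjusted p = 0.261).

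**Figure D2:**
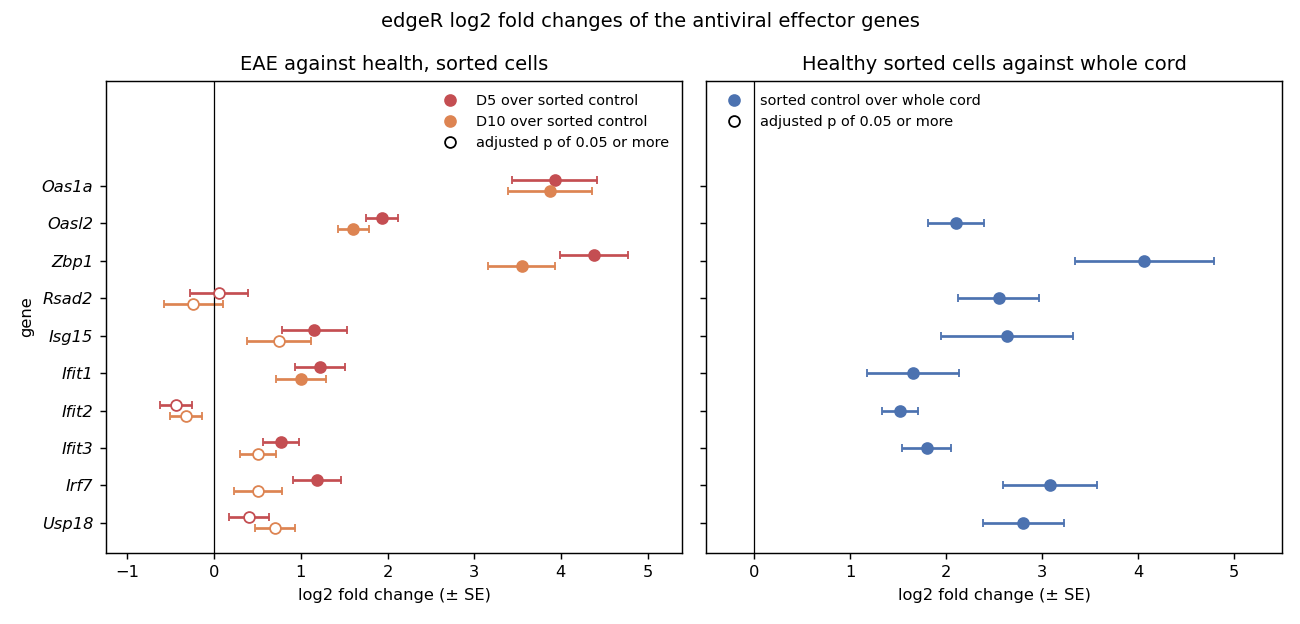
Log2 fold change of each antiviral effector gene with its SE from edgeR, for D5 and D10 over sorted control (left) and for sorted control over whole cord (right); filled points passed an adjusted p of 0.05, and Oas1a was not tested against whole cord. Zbp1 and Oas1a lie near a log2 fold change of 4 at D5, Ifit2 lies below 0 at both times, and all 9 genes on the right lie above 0.

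D10 was also set directly against D5. None of the 10 genes was called by edgeR's quasi-likelihood test, where 0.131% of all genes were called in either direction, and 2 of the 10 had an unadjusted p under 0.05, beside 8.47% of all genes tested. DESeq2 and limma voom also called none of the 10. These 2 were Zbp1, with a log2 difference of -0.84 ± 0.32 (D10 over D5, adjusted p = 0.499), and Irf7, with -0.68 ± 0.27 (adjusted p = 0.51). The D10 libraries of Irf7 all lay below its D5 libraries, as in 7.37% of all genes tested, and the other 9 genes overlapped. The log2 difference was negative for 8 of the 10 genes, and the median was -0.28 beside 0.01 over all genes tested. The order of group means was D5, D10, sorted control and whole cord from high to low for 6 genes (Ifit1, Ifit3, Isg15, Oasl2, Zbp1 and Irf7). Usp18 had its highest mean at D10 (15.1 ± 2.63 CPM, against 12.2 ± 1.25 at D5, SD, n = 3 each) and Ifit2 in sorted control (54.9 ± 7.76 CPM).

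The D10 libraries differed among themselves. Replicate 3 was the highest D10 library for 7 of the 10 genes, against 37% of all genes tested, and replicate 1 was the lowest for 6 of the 10, against 31.7%. Replicate 1 stood lowest in Rsad2, Isg15 and Usp18, and replicate 3 stood highest in Zbp1 and Oasl2. Without replicate 3, Zbp1 was called lower at D10 than at D5 (log2 difference -1.50, adjusted p = 0.00569, range over all alternatives 0.00569 to 1). Replicate 3 also had the highest summed level of pan-leukocyte markers at D10 (185 CPM, against 120 and 114 in replicates 1 and 2), the highest sum of fibroblast markers (68213 CPM, against 45506 and 32329) and the lowest sum of immediate-early genes (6316 CPM, against 16608 and 18680). The part of these differences in the Zbp1 values was not tested.

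Markers of other cell types were also higher in the EAE libraries. All 8 pan-leukocyte genes were called higher at D5 and at D10, and their summed level was 163 to 316 CPM at D5 and 114 to 185 CPM at D10, against 4.99 to 30.7 CPM in control. Of the 7 T cell genes, 6 rose at both times, with summed levels of 58.4 to 115 CPM at D5 and 27.2 to 38.8 CPM at D10, against 1.20 to 3.97 CPM in control. Of 14 microglia and macrophage genes, 7 rose at D5 and 8 at D10 (134.6 to 248 CPM and 186 to 469 CPM, against 70.5 to 88.8 CPM in control). Of 6 tested neutrophil and monocyte genes, 4 rose at D5 and 3 at D10 (55.4 to 105 CPM and 39.5 to 73.3 CPM, against 0.831 to 19.5 CPM in control), with Ly6g and Cxcr2 at 0 counts in control. All tested T cell, neutrophil and monocyte genes, and some pan-leukocyte genes, passed the filter on low counts only through the EAE groups. The filter thus let them in by their EAE levels, which adds to these counts of rises. No defining gene of the pan-leukocyte, T cell or macrophage lists was at 0 in any sorted group. For plasmacytoid dendritic cells, strong producers of type I interferon, 6 markers summed to 6.55 to 7.46 CPM at D5 and 1.82 to 6.16 CPM at D10, against 3.99 to 10.7 CPM in control. Only 2 of the 6 were tested. Cd300c had 0 counts in every group, and Klk1 had 0 at D5 and in control. Pacsin1, a part of the sum, had 406 to 436 CPM in whole cord. These markers thus cannot decide whether such cells were present. Some markers of resident cells moved as well. Of 6 astrocyte genes, 3 rose at each time (925 to 1030 CPM at D5 and 888 to 956 CPM at D10, against 558 to 623 CPM in control). Slc1a2, which had 3677 to 3733 CPM in whole cord, made up little of this sum. It had 12.1 to 39.7 CPM at D5, 13.7 to 33.5 CPM at D10 and 4.81 to 14.8 CPM in control. Of 8 endothelial genes, 1 rose at each time (474 to 560 CPM and 394 to 448 CPM, against 246 to 291 CPM). That is near the share of all genes tested that were called higher, 13.2% at D5 and 8.38% at D10. Cdh5 made up most of the endothelial sum, with 398 to 470 CPM at D5, 358 to 404 CPM at D10 and 201 to 228 CPM in control. Of 6 mural genes, 2 rose and 1 fell at D5 and 3 fell at D10 (1437 to 2722 CPM and 532 to 1205 CPM, against 1782 to 3463 CPM). The fibroblast markers, led by Col1a1, summed to 36295 to 50170 CPM at D5 and 32329 to 68213 CPM at D10, against 22906 to 29759 CPM in control. They did not move as one: 5 of the 9 rose and 4 fell at D5 (Dcn, Lum, Pdgfra and Vtn), and 5 rose and 1 fell at D10 (Dcn). Within D5, replicate 3 had the lowest pan-leukocyte sum (163 CPM, against 299 and 316 in replicates 1 and 2), and its Zbp1 level lay between those of the other 2. Other interferon genes went either way: Oas1a was highest in replicate 3 (9.21 CPM), while Epsti1 (9.97 CPM) and Slfn2 (14.0 CPM) were lowest in it. The part of any of these cell types in the rise of the 10 genes was not tested, and in bulk libraries more cells of a type and more RNA per cell cannot be told apart.

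The rest of the pathway was read from lists of 117 other type I interferon genes, of which 111 were in the table and 91 were tested in the sorted cells. At D5, 45 rose and 3 fell (median log2 fold change 0.63). At D10, 33 rose and 1 fell (median 0.44). Some of the 91 passed the filter on low counts only through the EAE groups. Among them were Batf2, Oas1g, Oas3, Tlr7 and Gvin1, all under 1 CPM in every control library. Irf8, Slfn2, Oas2, Epsti1 and Ifi44, described below, were also among them, since their control libraries did not all reach the filter's limit. The filter thus let such genes in for their difference, which adds to the count of rises. None of the 91 was called between D10 and D5 by edgeR's quasi-likelihood test, and 12 of them had an unadjusted p under 0.05, beside 8.47% of all genes tested. The leukocyte markers moved the same way in these libraries, and their part in these counts was not tested.

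Interferon transcripts themselves were nearly absent. None of the 16 ligand genes in the table passed the filter, and their counts summed to 8 over the 3 D5 libraries, 9 at D10, 23 in sorted control and 13 in whole cord. Only Ifna2, Ifna7, Ifnk and Ifnz had any count. Ifnb1, which encodes interferon beta, had 0 counts in all 11 libraries, which allows up to 3 counts, or 0.276 to 0.390 CPM, in a library. A difference in ligand transcripts was therefore not detectable at this depth.

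Both receptor chains rose by a like amount at D5 and at D10. Ifnar1 had 53.6, 69.3 and 67.4 CPM in control, 111, 94.8 and 107 CPM at D5, and 97.5, 91.4 and 121 CPM at D10, with no overlap between control and EAE (log2 fold change 0.72 at D5, adjusted p = 0.00496, and 0.70 at D10, adjusted p = 0.0101). Ifnar2 had 41.1, 42.7 and 35.4 CPM in control, 71.2, 56.9 and 72.4 CPM at D5, and 67.8, 67.0 and 64.2 CPM at D10, again without overlap (log2 fold change 0.76, adjusted p = 0.00285, and 0.74, adjusted p = 0.00585). Stat2 and Irf9, parts of the ISRE-binding complex, gave values that did not pass the test. Stat2 had log2 values of 0.35 at D5 (adjusted p = 0.371) and 0.07 at D10 (adjusted p = 0.901), and Irf9 had -0.18 (adjusted p = 0.62) and 0.04 (adjusted p = 0.938). The kinase Jak1 rose at D5 (log2 fold change 0.44, adjusted p = 0.027) and had 0.35 at D10 (adjusted p = 0.0956).

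**Figure D3:**
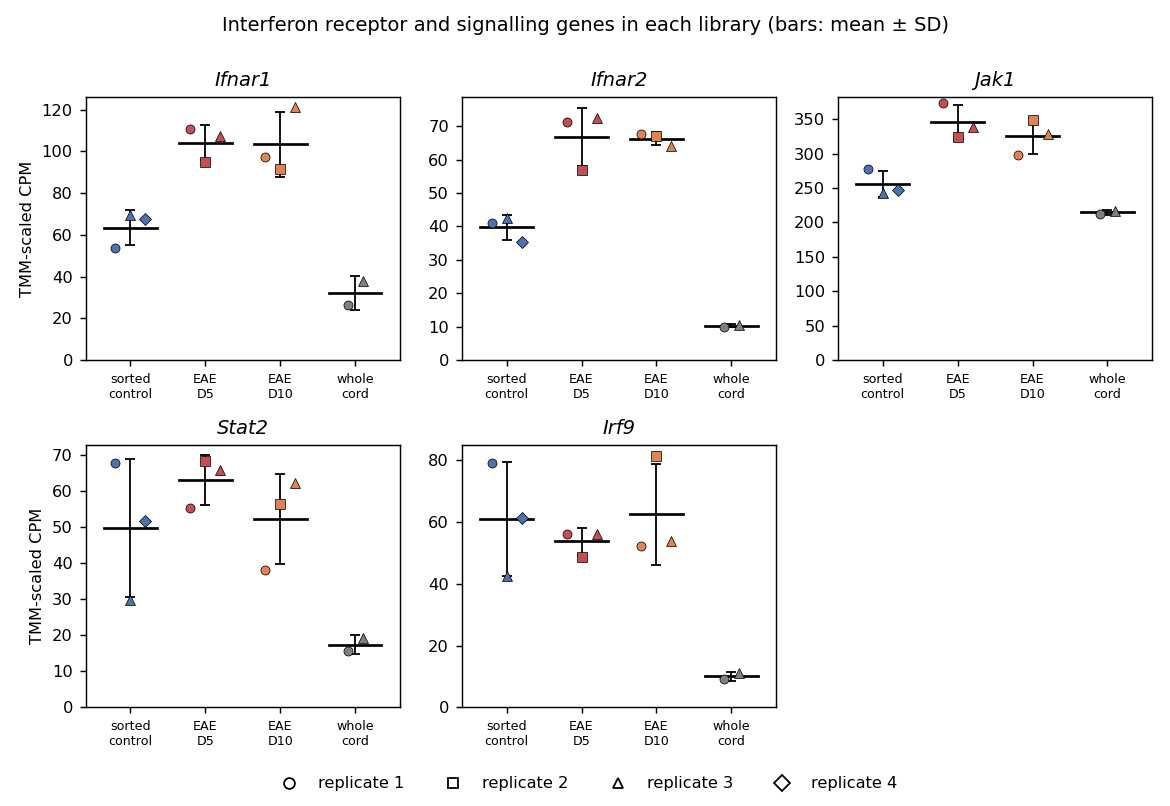
TMM-scaled CPM of interferon receptor and signalling genes in every library, from sorted control through D5 and D10 to whole cord, with mean ± SD; points are libraries, shaped by replicate number. Ifnar1 and Ifnar2 show no overlap between control and EAE libraries, while the control and EAE libraries of Stat2 and Irf9 overlap.

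Among 14 nucleic acid sensors and adaptors, 5 rose at D5 and 3 at D10. Among 6 transcription factors, 3 rose at each time. Irf8, a factor of myeloid cells that also responds to interferon gamma, averaged 42.1 ± 1.07 CPM at D5, against 2.68 ± 1.88 in control (SD, n = 3 each, log2 fold change 3.95, adjusted p = 8.10e-05), and 32.6 ± 12.5 CPM at D10 (3.58, adjusted p = 0.000357). Batf2, a partner of Irf1, averaged 7.06 ± 0.710 CPM at D5, against 0.237 ± 0.0389 in control (log2 fold change 4.82, adjusted p = 0.00017). Irf8 and Batf2 passed the filter on low counts only through the EAE groups, in which they are high.

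Of 56 other antiviral effectors tested, 30 rose and 1 fell at D5, and 22 rose at D10. Slfn2, a Schlafen protein of immune cells, averaged 19.9 ± 6.93 CPM at D5, against 0.906 ± 0.706 in control (log2 fold change 4.46, adjusted p = 0.000366), and 12.6 ± 8.32 CPM at D10 (3.79, adjusted p = 0.00228). Oas2, a further oligoadenylate synthetase, averaged 13.5 ± 2.11 CPM at D5, against 1.47 ± 0.751 in control (log2 fold change 3.18, adjusted p = 0.000152), and 12.4 ± 2.69 CPM at D10 (3.06, adjusted p = 0.000487). The membrane protein Ifitm1, which hinders viral entry, averaged 71.3 ± 12.5 CPM at D5, against 10.6 ± 3.93 in control (log2 fold change 2.75, adjusted p = 0.000169), and 37.5 ± 15.6 CPM at D10 (1.82, adjusted p = 0.00395). Epsti1 (log2 fold change 3.63 at D5, adjusted p = 0.00246) and Ifi44 (2.47, adjusted p = 0.0134) were also among the genes with the largest changes at D5 of those at 5 CPM or more. At D10 the others were Epsti1 (2.76, adjusted p = 0.0179), Mnda (2.01, adjusted p = 0.0128), the immunoproteasome subunit Psmb8 (1.86, adjusted p = 0.000622) and Slfn8 (1.86, adjusted p = 0.00184). Slfn2, Oas2, Epsti1 and Ifi44 passed the filter on low counts only through the EAE groups, in which they are high. Without D10 replicate 3, the count of other type I interferon genes called at D10 was 20 rather than 34.

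Of 8 tested negative regulators, 4 rose and 2 fell at D5, and 3 rose and 1 fell at D10. Genes that fell were Socs3, an inhibitor of Jak kinases (log2 fold change -1.28 at D5, adjusted p = 0.0119), Pias1, a SUMO ligase that restrains the pathway (-0.51 at D5, adjusted p = 0.021, and -0.66 at D10, adjusted p = 0.00998), and the effector Mx2 (-1.84 at D5, adjusted p = 0.0381). Socs3 had 992, 435 and 901 CPM in control, 433, 292 and 230 CPM at D5, and 588, 740.5 and 392 CPM at D10. Of 11 immediate-early genes, which dissociation can raise, 2 fell at D5 (Egr1 and Ier2) and none rose, with a median log2 fold change of -1.07 and sums of 5599 to 11447 CPM, against 11109 to 20157 CPM in control. Their part in the fall of Socs3 was not tested. Psmb9, Trex1 and H28 (Ifi44l) had 0 counts in all 11 libraries and entered no test.

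**Figure D4:**
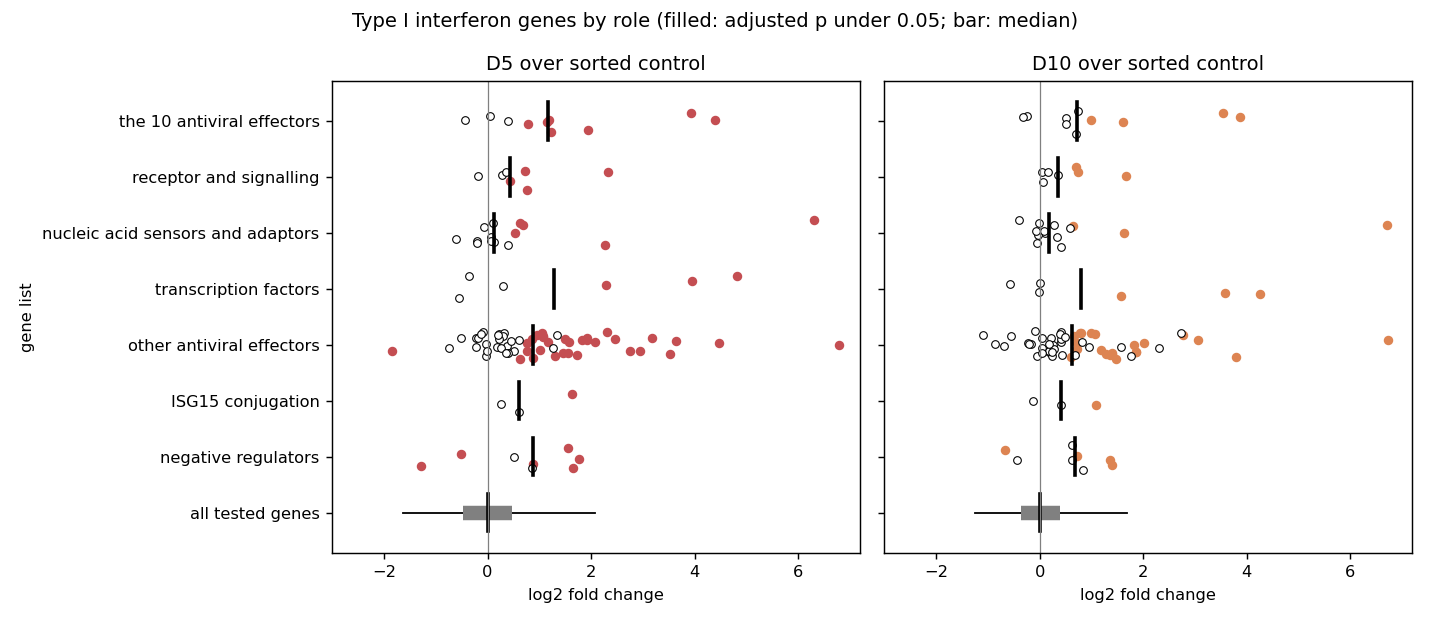
edgeR log2 fold change over sorted control at D5 (left) and D10 (right) for the 10 antiviral effectors and the other type I interferon genes by role; each point is a gene, filled where the adjusted p was under 0.05, black bars are list medians, and the box and line for all tested genes span the middle 50% and 90%. The 10 effectors have medians of 1.17 and 0.72, beside 0.00 and 0.01 for all tested genes. The points beyond 6 are Tlr7 and Gvin1, which had 0 counts in control, so their fitted values depend on the prior count.

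In health, sorted Col1a1 GFP cells were compared with whole cord. Of the 10 genes, 9 were tested, and all 9 were higher in the sorted cells, from 2.86-fold for Ifit2 to 16.7-fold for Zbp1, with a median log2 fold change of 2.55. Of these, Zbp1, Isg15 and Usp18 passed the filter on low counts only through sorted control, in which they are high. The filter thus let them in for their difference, which adds to the count and to the median. Calls were common in this comparison, where 26.9% of the 16562 genes tested were higher and 28.7% lower, with a median of 0.04. All sorted control libraries of these 9 genes lay above whole cord, as in 35.2% of all genes tested.

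Zbp1, Irf7 and Usp18 differed most in fold. Zbp1 had 3.64, 4.69 and 3.23 CPM in sorted control, against 0.260 and 0.194 CPM in whole cord (log2 fold change 4.06 ± 0.72, adjusted p = 0.00227). Whole cord held only 4 reads of Zbp1, and the counting ratio was 17.3 with an exact 95% interval of 6.58 to 64.6, again for counting error only. Irf7 had 16.4, 9.37 and 19.9 CPM in sorted control, against 1.30 and 2.33 CPM in whole cord (log2 fold change 3.08 ± 0.49, adjusted p = 0.00127). Usp18 had 9.62, 9.67 and 8.68 CPM, against 1.69 and 1.07 CPM in whole cord (2.80 ± 0.42, adjusted p = 0.000946). For both genes the lowest sorted library was more than 3 times the highest whole cord library. Rsad2, which did not differ detectably between EAE and health, had 11.3, 7.97 and 8.22 CPM in sorted control, against 1.43 and 1.75 CPM in whole cord (2.55 ± 0.42, adjusted p = 0.00156). Oasl2 had 23.0, 20.0 and 17.4 CPM in sorted control, against 4.03 and 5.53 CPM in whole cord (2.10 ± 0.29, adjusted p = 0.000644).

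Isg15 and the Ifit genes were also higher in the sorted cells. Isg15 had 7.16, 2.79 and 5.82 CPM in sorted control, against 1.17 and 0.582 CPM in whole cord (log2 fold change 2.63 ± 0.69, adjusted p = 0.0134). Ifit3 had 29.6, 22.0 and 23.0 CPM in sorted control, against 8.06 and 6.69 CPM in whole cord (1.79 ± 0.26, adjusted p = 0.00079). Ifit1 had 19.8, 9.27 and 8.40 CPM in sorted control, against 3.64 and 4.46 CPM in whole cord (1.65 ± 0.48, adjusted p = 0.0204). In each of the 3 the groups did not overlap. Ifit2 had 63.7, 49.0 and 52.0 CPM in sorted control, against 20.7 and 18.8 CPM in whole cord (1.52 ± 0.19, adjusted p = 0.000357). Leaving out either whole cord library ended the calls of Isg15 (adjusted p = 0.0543 without replicate 1 and 0.127 without replicate 3, range over all alternatives 0.00123 to 0.127) and Ifit1 (0.133 and 0.0856, range 0.00209 to 0.133), as did limma voom for Ifit1 (0.0536).

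Oas1a was not tested. It had 1, 9 and 7 reads in the sorted control libraries, against 2 and 9 in whole cord, too few to pass the filter, and the groups overlapped. Its counting ratio was 0.947 with an exact 95% interval of 0.419 to 2.24, which covers counting error only. Of the other type I interferon genes, 61 of 83 were higher in sorted control and 3 were lower (median log2 fold change 1.99). Among those at 5 CPM or more, the largest differences were in Socs3 (8.20, adjusted p = 1.17e-05), the transcription factor Irf1 (5.87, adjusted p = 4.58e-05), the DNA sensor family member Ifi204 (5.21, adjusted p = 0.000883), Ifitm2 (4.54, adjusted p = 9.38e-06) and Socs1 (4.39, adjusted p = 0.000355). Mov10 (4.07, adjusted p = 3.38e-05), Ifitm1 (4.03, adjusted p = 0.000791) and Ifitm3 (4.01, adjusted p = 4.39e-06) came next. Some of the 83, among them Ifi204, Socs1 and Ifitm1, passed the filter on low counts only through sorted control, in which they are high. The filter thus let such genes in for their difference, which adds to the count of higher genes.

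The 2 kinds of healthy library differed in preparation as well as in cells. All 9 fibroblast markers were higher in sorted control (22906 to 29759 CPM, against 270 to 468 CPM in whole cord), and so were all 6 mural markers (1782 to 3463 CPM, against 125 to 217 CPM) and all 11 immediate-early genes (11109 to 20157 CPM, against 179 to 192 CPM). The reporter strain, the dissociation and the sorting went with the sorted cells alone, so the cells and their handling cannot be told apart in this comparison. Pan-leukocyte markers did not run in the same direction, at 4.99 to 30.7 CPM in sorted control, against 51.8 to 63.0 CPM in whole cord.

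Among themselves, the 10 genes followed different profiles over the 9 sorted libraries. Likeness was measured as the root-mean-square (RMS) difference of centred log2(CPM + 1) profiles. Isg15 and Irf7 were the closest pair (RMS 0.235 log2 units), followed by Ifit3 and Isg15 (0.272), and Ifit2 and Zbp1 were the farthest apart (1.99). Of 11383 other genes with a mean of at least 5 CPM, those nearest to the mean profile of the 10 were Fam38a (RMS 0.0970), Litaf (0.101), Fzd1 (0.114), Nek6 (0.119) and Sox4 (0.121), beside a median of 0.63 for all ranked genes. None of the 5 was in the type I interferon lists, which hold only a small part of the 11383 genes. All 5 had log2 fold changes of 1.14 to 1.36 at D5, which follows from picking them by likeness over the same libraries. The nearest genes describe the shape of a mean over unlike members and rest on 9 libraries.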

How the data were processed

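The authors deposited raw counts per gene for all 11 libraries, per the file headers, beside CPM and group means (15 columns) that were not used here. The submitters' processing notes list HTSeq 0.6.1, SAMtools 0.1.19, TopHat2 2.0.11, Bowtie2 2.2.1, DESeq2 and the build mm9. The sources used here do not give the annotation or the strand setting, so a gene's reads cannot be told from those of an overlapping or antisense partner. Library totals were 7123291 to 12238751 counts. The table's 1 line of totals was left out.

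Counts were tested with edgeR 4.0.16 (R 4.3.3), by its quasi-likelihood test after TMM scaling and filterByExpr by group, in 1 fit of the 9 sorted libraries (15972 genes) and 1 of the 5 healthy libraries (16562 genes). P-values were Benjamini-Hochberg adjusted over all genes tested and called under 0.05. The SE was derived from the test statistic. Levels are CPM scaled with TMM factors over all 11 libraries. Alternatives were DESeq2 1.42.0 size factors and Wald test, limma 3.58.1 voom, no filter, a replicate block, 1 fit of all 11 libraries and leaving out each library. The fits were tested on simulated counts. The 10 genes, the gene lists and the naming rule were chosen with earlier results of these data known. The rule named all 10 genes, and in each comparison the 8 other type I interferon genes with the largest change among those called and at 5 CPM or more in the higher group, plus Ifnar1, Ifnar2, Stat2, Irf9, Ifnb1 and the Isg15 conjugation genes. One further item that the rule names is not reported here. Jak1, Oas1g, the Ifit copies, Pias1, Mx2, Socs3 in the sorted cells, the called members of marker lists and the genes at 0 were added after their values were seen. The whole cord labels carry the sorted samples' protocol, but the design text calls these samples homogenate, which was followed. No label names a batch. Promoter sequences are RefSeq's (GRCm38.p6), a build other than that of the counts, and coordinates are given for these sequences alone. A protein comparison was not made here.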

Additional observations from a re-analysis of the deposited data

How the results depend on the processing

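Of the alternatives for single genes, 428 kept their direction and side of the threshold, 21 no longer passed, 2 newly passed and 8 changed sign. The sign changes were all in values far from the threshold. Rsad2 at D5 was -0.12 (log2) with the replicate block and -0.0457 to 0.225 with a library left out. Leaving out a library gave -0.568 to 0.0386 for Rsad2 at D10, -0.618 to 0.00503 for Rsad2 between D10 and D5, -0.0647 to 0.253 for Ifit2 and -0.183 to 0.0427 for Oas1a between D10 and D5. With a library left out, 5 to 7 of the 10 genes were called at D5, 3 to 4 at D10, 0 to 1 between D10 and D5 and 7 to 9 between sorted control and whole cord. The same range for other type I interferon genes was 20 to 34 at D10, 0 to 3 between D10 and D5 and 42 to 68 against whole cord. Over all genes it was 2446 to 3588 at D5 (3817 with all libraries), 1045 to 2031 at D10 (2136), 1 to 218 between D10 and D5 (21) and 5973 to 10054 against whole cord (9208). Between D10 and D5, DESeq2 called 176 genes, limma voom 33 and the fit without a filter 265, and without a filter 2 other type I interferon genes were called. Whether a shared replicate number marks a shared preparation is not known. Correlations of deviations from group means ran from -0.105 to 0.174 for same-numbered libraries and from -0.201 to 0.171 for differently numbered ones. With the replicate block, 5 of the 10 genes were called at D5, without Ifit1 (adjusted p = 0.0554) and Isg15 (0.0943), and 3 at D10, without Ifit1 (0.145), and 21 other type I interferon genes rather than 34 were called at D10. The causes were not tested. With 3 pools a group and 2 whole cord libraries, small changes such as those of Usp18 and Ifit2 lie at the limit of what these libraries resolve, and depth limits Oas1a and Zbp1 in health and all ligand genes.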
